A study of Mus musculus with 12 samples.

Results

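The p53 and DNA damage targets are genes that the transcription factor p53 switches on for cell-cycle arrest, cell death and DNA repair. They were followed in mouse embryoid bodies in which the level of Geminin, a protein that restrains the licensing of replication origins, was lowered or raised. The list names 34 genes. A gene was taken up where a probe set of the array was annotated to it alone, and the brightest probe set by mean over all arrays stood for a gene. This held for 30 of the 34, out of 19938 genes in all, and all 30 passed the filter on dim genes. Each of the 30 had a single probe set. Trp53, Bax and Gdf15 are not analysed here. Cdkn1a is not analysed here either, since its probe set is annotated to a further gene as well.

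The embryoid bodies were grown from A2lox embryonic stem (ES) cells of the 129P2/OlaHsd background, kept on irradiated mouse embryonic fibroblasts and separated from them before aggregation. In the knockdown line doxycycline (dox, 0.5 µg/ml) induced microRNAs against the Geminin transcript, and in the overexpression line it induced Geminin. The knockdown groups were collected on day 4, with dox from day 0 (3 arrays) or without dox (3 arrays). The overexpression groups had dox from day 3 or none. They were collected on day 5 (replicates 1 and 2, so 2 arrays a group) and on day 4 (replicate 3, so 1 array a group). No group is a dox-treated line without a transgene, so dox itself and the transgene cannot be told apart. Nothing in the labels says that replicates were separate cultures, so p-values measure no more than the spread among these samples, and that spread may be technical.

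In unstressed cells Mdm2 and its partner Mdm4 hold p53 down, Mdm2 by marking it for degradation. Stalled replication forks and broken DNA activate the kinases Atr and Atm, p53 is released from Mdm2, and it then binds paired copies of a short motif near its target genes. Mdm2 is itself such a target, which closes a feedback loop. In ES cells p53 is abundant, and its death and differentiation programmes are better known there than its arrest programme.

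The start regions of the measured members show where such a motif lies close to a gene. RefSeq start regions (build GRCm38.p6) were found for 22 of the 30, with 29 windows of 250 bases before a start. The p53 half-site consensus, a decamer that reads the same on both strands, was searched as a pair with at most 1 base between the copies. Up to 3 of the 20 letters were allowed to be off, and the C and G of each CNNG core had to be kept. Such a pair stood in 7 of the 29 windows (24.1%), against 2.28% of all 32851 windows. The threshold was chosen with the member windows in view, and a match is a description of letters, not a binding site. The 7 are printed 5′ to 3′ on the gene's strand, because they are the members with the motif next to a start, with the pair in capitals.
Ccng1: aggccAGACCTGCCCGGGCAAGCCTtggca
Rps27l: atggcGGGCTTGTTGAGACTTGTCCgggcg
Ckap2: tctgaAGACATGTCCTGACTTGTCAagcct
Aen: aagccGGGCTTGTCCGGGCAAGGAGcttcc
Bbc3: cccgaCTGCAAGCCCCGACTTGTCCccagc
Dcxr: aggacAGCCTTGCCTCGGTCACGCCCactc
Sesn1: ccttcAAGCTTGTTTTTGCTGGCCTggtcc
They lie at chr11:40755457-40755486 (minus strand), chr9:66946291-66946320 (plus), chr8:22185998-22186027 (minus), chr7:78895932-78895961 (plus), chr7:16309481-16309510 (plus), chr11:120727382-120727411 (minus) and chr10:41887261-41887290 (plus), in the order printed. The pair was 1 letter off in Ccng1 and Rps27l, 2 off in Ckap2 and 3 off in the other 4. Aen, Bbc3, Rps27l and Sesn1 have more than 1 start in the table, and the window of 1 of them holds the pair.

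Ccng1, which encodes cyclin G1 and is among the members that differed most between days, is shown with all 250 bases before its start (chr11:40755287-40755536, minus strand, pair in capitals).
Ccng1: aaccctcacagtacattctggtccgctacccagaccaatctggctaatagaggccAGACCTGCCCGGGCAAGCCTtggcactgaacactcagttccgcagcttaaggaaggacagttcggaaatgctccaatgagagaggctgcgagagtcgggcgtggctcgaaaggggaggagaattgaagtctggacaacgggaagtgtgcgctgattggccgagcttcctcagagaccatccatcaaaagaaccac
The pair begins 195 bases before the start.

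Levels are log2 intensities after quantile normalization, and differences are log2 differences with the standard error (SE) of 1 limma model of all 12 arrays. A gene was called at a Benjamini-Hochberg adjusted p under 0.05 over 15950 tested genes. Gmnn, which encodes Geminin, lay lower in all 3 dox arrays of the knockdown line than in its controls (-0.50 ± 0.14; limma adjusted p = 0.965). It lay higher in every dox array of the overexpression line (0.82 ± 0.14; limma adjusted p = 0.922). Array medians before normalization lay between 145.3 and 182.2, the highest in knockdown control replicate 3. The summed intensity of 10 pluripotency markers lay between 32470 and 39341 in the knockdown line and between 22052 and 31115 in the overexpression line, and that of 9 primitive streak and mesendoderm markers between 1468 and 7495 and between 6390 and 12688. The 14 fibroblast markers, which embryonic mesoderm also expresses, summed to between 2372 and 3497, and 12 of the 14 passed the filter on dim genes.

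**Figure D1:**
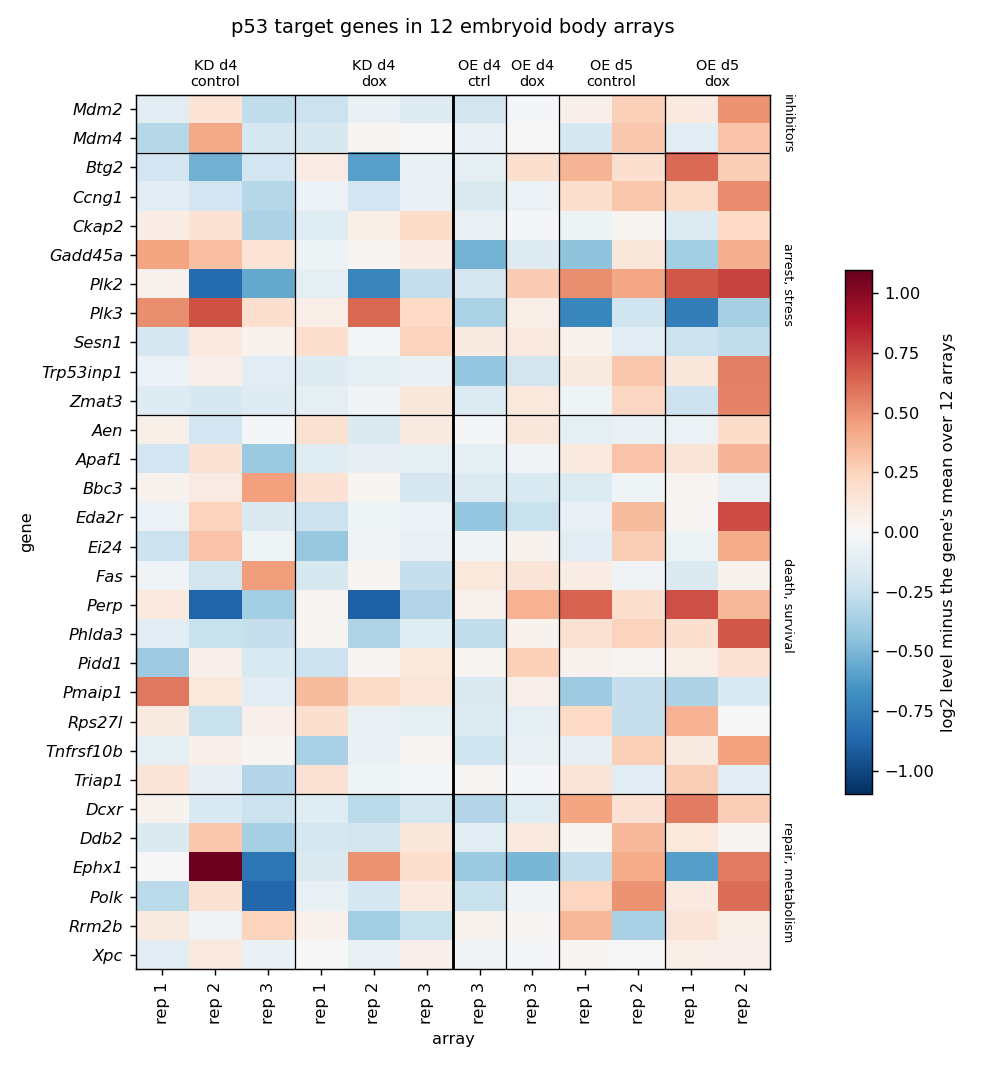
Level of the 30 measured p53 targets (rows, grouped by role) in the 12 arrays (columns; KD, knockdown line; OE, overexpression line; d4 and d5, day 4 and day 5). Colour is the log2 level minus the gene's mean over the 12 arrays. Perp and Ephx1 differ by more between replicates 1 and 2 (by at least 0.35 and 0.65 in each group) than by the fitted effect of dox in either line, and Plk2, Ccng1, Phlda3 and Dcxr are highest in the day 5 arrays.

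In the knockdown line the p53 targets showed no shared direction with dox. Of the 30 members 16 lay higher and 14 lower (52.7% and 47.3% of all tested genes), and their median difference was 0.02, beside 0.01 over all tested genes. Limma called 0 members (adjusted p from 0.965 to 0.996), where 0.00627% of all genes were called. Below an unadjusted p of 0.05 lay 0 members, against 2.17% of genes higher and 1.59% lower. With equal replicate numbers taken as pairs (a replicate block), which the labels do not give, there were 2, both lower, against 4.65% of genes lower. The 95% interval of the difference lay within a 2-fold change either way for 29 of the 30 members and within 1.5-fold for 24. Beside this, 9 of 9 mesendoderm markers lay higher with dox in the knockdown line (median 0.68) and 8 of 10 pluripotency markers lower (median -0.17), and their part in the values of the p53 targets was not tested.

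Among the inhibitors of p53, Mdm2 stood at 10.17, 10.44 and 10.02 without dox and at 10.05, 10.22 and 10.15 with dox (replicates 1, 2 and 3). The groups overlapped (-0.07 ± 0.13; limma adjusted p = 0.972), and the sign turned without control replicate 2 (0.05). Mdm4 was at -0.02 ± 0.20.

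Among the arrest and stress genes, Gadd45a, a small protein induced by growth arrest and DNA damage, stood at 10.22, 10.12 and 9.94 without dox and at 9.73, 9.81 and 9.87 with it. All 3 dox arrays lay below all 3 controls, as for 3.25% of all genes (-0.29 ± 0.20; limma adjusted p = 0.965; exact permutation test, two-sided p = 0.1, which is the lowest that 3 arrays against 3 can give). Zmat3, an RNA-binding zinc finger protein, was the single member with all dox arrays above all controls, which 4.97% of genes showed. It stood at 9.05, 9.02 and 9.05 without and 9.09, 9.17 and 9.32 with dox (0.15 ± 0.17), and the difference was 0.08 without dox replicate 3. Sesn1, a sestrin that restrains mTORC1, was at 0.15 ± 0.11, and at 0.06 without control replicate 1 and 0.23 without dox replicate 2.

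Among the death genes Bbc3, the BH3-only protein also called Puma, stood at 9.32, 9.37 and 9.72 without dox and 9.43, 9.30 and 9.10 with dox (-0.19 ± 0.13). Leaving out each array in turn gave -0.27 to -0.06, the latter without control replicate 3. The death receptor gene Fas was at -0.20 ± 0.16, and at -0.01 without control replicate 3 and -0.34 without control replicate 2. Pidd1, a scaffold that activates caspase 2, was at 0.14 ± 0.13, and at 0.03 without control replicate 1 and 0.25 without control replicate 2. Among the repair genes Rrm2b, the ribonucleotide reductase subunit that supplies nucleotides for repair, stood at 7.76, 7.61 and 7.90 without and 7.70, 7.28 and 7.41 with dox (-0.30 ± 0.18). The groups overlapped, through dox replicate 1, and leaving out each array in turn gave -0.41 to -0.20. Polk, a translesion DNA polymerase, was at 0.28 ± 0.23. It was at 0.01 without control replicate 3, where its level of 7.27 was the lowest of the 12 arrays, and at 0.52 without control replicate 2.

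In the overexpression line most p53 targets lay slightly higher with dox, and none passed the test. Of the 30 members 26 lay higher (86.7%, against 56.7% of all tested genes) and 4 lower (43.3% of genes), with a median difference of 0.12 beside 0.01 over all genes. Leaving out each array in turn gave 21 members higher without day 5 dox replicate 2, up to 27 without day 5 dox replicate 1. The share of all genes higher was not recounted in those fits. Limma called 0 members (adjusted p = 1 for each), where 0.00627% of genes were called. Below an unadjusted p of 0.05 lay again 0 members, against 0.345% of genes higher and 0.589% lower. Without day 5 dox replicate 1 there were 5 members, all higher, against 0.652% of genes. With all arrays and the replicate block 6 members lay below this p, all higher, against 1.89% of genes higher. In the fit without a block the SE of a member's difference lay between 0.09 and 0.44, and 29 of the 30 intervals lay within a 2-fold change. The plot of dox effects in both lines shows the same sizes. The 10 pluripotency markers also lay higher with dox, 10 of 10, with a median of 0.12, and the part of such differences in the p53 targets was not tested. Since these are whole embryoid bodies, fewer cells of a type and less RNA per cell cannot be told apart.

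**Figure D2:**
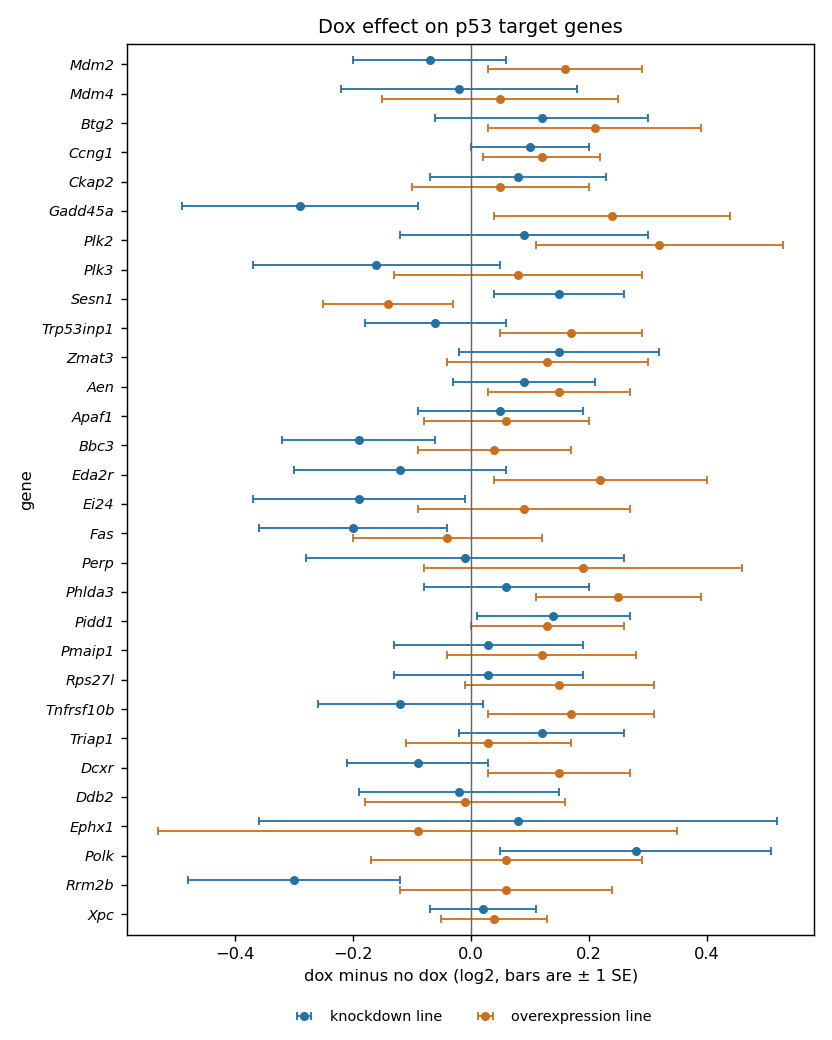
Difference between dox and no dox (log2, points) with ± 1 SE (bars) for the 30 measured p53 targets in the knockdown line (blue) and the overexpression line (orange). Of the orange points 26 lie to the right of 0, and of the blue points 16 do. None of the differences was called.

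Mdm2 stood at 10.35 and 10.55 without dox and at 10.40 and 10.79 with dox on day 5, with 10.08 and 10.27 on day 4 (0.16 ± 0.13). The day 5 groups overlapped, and the difference was 0.05 without day 5 dox replicate 2.

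The arrest gene with the largest difference was Plk2, a polo-like kinase. It stood at 10.19 and 10.10 without and 10.35 and 10.42 with dox on day 5, and at 9.48 and 9.95 on day 4 (0.32 ± 0.21). Its dox arrays lay above the controls of the same day throughout, as for 5.15% of all genes (exact permutation test within days, two-sided p = 0.17, which is the lowest these arrays can give). Gadd45a stood at 9.35 and 9.92 without and 9.42 and 10.19 with dox on day 5, and at 9.27 and 9.65 on day 4 (0.24 ± 0.20). Its groups overlapped on day 5, and the difference was 0.04 without day 5 dox replicate 2 and 0.48 without day 5 dox replicate 1. Btg2, an antiproliferative gene, was at 0.21 ± 0.18. Sesn1 lay lower at -0.14 ± 0.11, and at -0.07 without day 5 control replicate 1.

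Among the death and survival genes Phlda3, which restrains the kinase Akt, stood at 9.44 and 9.52 without and 9.45 and 9.96 with dox on day 5, and at 9.0 and 9.31 on day 4 (0.25 ± 0.14; limma adjusted p = 1). Eda2r, a receptor of the tumour necrosis factor family, stood at 8.94 and 9.37 without and 9.04 and 9.74 with dox on day 5, and at 8.59 and 8.77 on day 4 (0.22 ± 0.18). In both genes day 5 dox replicate 2 was the highest of the 12 arrays. Without that array Phlda3 was at 0.12 and Eda2r at 0.01, and without day 5 dox replicate 1 both were at 0.41. Aen, a nuclease of apoptosis, Pidd1 and the repair gene Xpc were the other members with no overlap within a day, with differences of 0.15 ± 0.12, 0.13 ± 0.13 and 0.04 ± 0.09. No member had its dox arrays below the controls of the same day throughout, as for 3.99% of genes. The BH3-only genes Bbc3 (0.04 ± 0.13) and Pmaip1 (0.12 ± 0.16), also called Noxa, had small differences. Fas was at -0.04 ± 0.16.

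Among the repair and metabolic genes Dcxr, a sugar and dicarbonyl reductase, was at 0.15 ± 0.12, Rrm2b at 0.06 ± 0.18 and Polk at 0.06 ± 0.23. Ddb2, which recognises ultraviolet lesions, was at -0.01 ± 0.17. Ephx1, the microsomal epoxide hydrolase, was at -0.09 ± 0.44, and its sign turned without day 5 control replicate 2 (0.10) or day 5 dox replicate 1 (0.24).

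Differences between arrays of the same replicate number were taken as a description, since the labels do not say that a number pairs the cultures. In the overexpression line 22, 25 and 26 of the 30 members were higher with dox in replicates 1, 2 and 3. Of all genes 50.2%, 55.3% and 57.5% were higher. The medians of the members were 0.06, 0.15 and 0.16. All 3 differences were above 0 for 19 members, against 16.6% of all genes, but for 6 members against 10% of genes when each array was scaled to a common median. With that scaling 9 members were higher in replicate 1, against 33.3% of all genes, and the median over all genes there was -0.08. In the knockdown line 14, 8 and 24 members were higher in replicates 1, 2 and 3, against 51.8%, 53.7% and 54.9% of all genes. All 3 differences were above 0 for 4 members, against 19.5% of all genes. Replicate 3 of the knockdown line thus had the opposite balance of members to replicate 2. Scaled to a common median, 6 and 27 members were higher in replicates 2 and 3, against 45.6% and 70.7% of all genes.

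**Figure D3:**
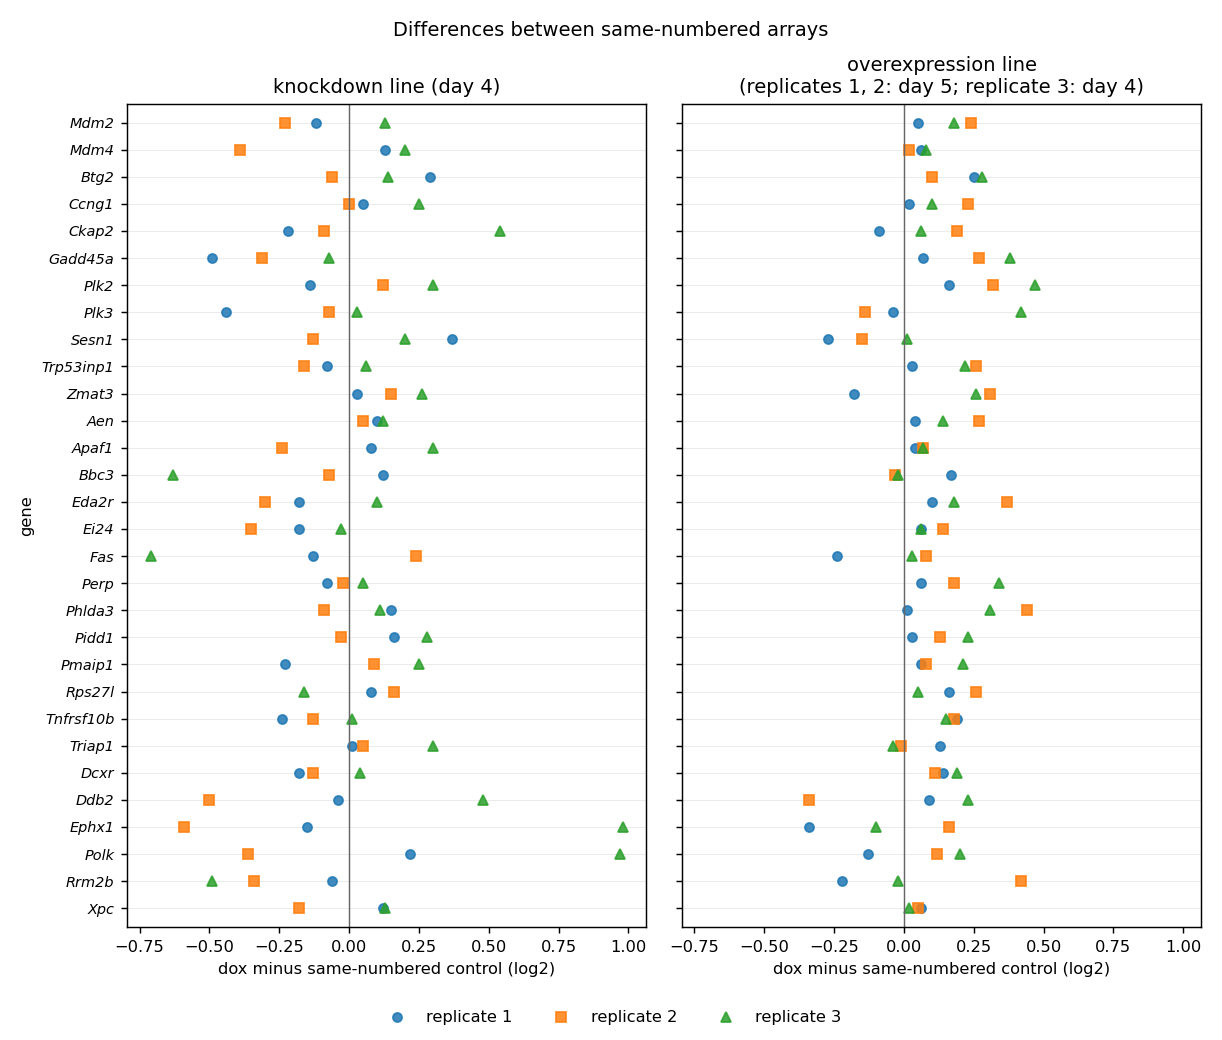
Dox minus control (log2) between arrays of equal replicate number for each p53 target, in the knockdown line (left) and the overexpression line (right). Symbols mark replicates 1 (circles), 2 (squares) and 3 (triangles). On the right most symbols lie above 0, while on the left replicates 2 and 3 lie on opposite sides for many genes, with Polk at -0.36 and 0.97.

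The effect of dox in the overexpression line was subtracted from that in the knockdown line. This contrast uses the same arrays as both dox comparisons. Of the 30 members 23 were lower and 7 higher (against 49.9% and 50.1% of all genes), with a median of -0.11 beside 0.00. With each array scaled to a common median 15 were higher and 15 lower, but that scaling moved the median over all genes to 0.068. Relative to the median of all genes 8 members lay above it with that scaling and 7 in the fit given here. Limma called 0 members (adjusted p = 1 for each), with 0% of all genes called. Below an unadjusted p of 0.05 lay 0 members, against 1.13% of genes higher and 0.997% lower. With the replicate block there were 5, all lower, against 4.01% of genes lower. Gadd45a differed most (-0.53 ± 0.28), followed by Rrm2b (-0.35 ± 0.25), Eda2r (-0.34 ± 0.26) and the TRAIL receptor gene Tnfrsf10b (-0.29 ± 0.19). Sesn1 differed most the other way (0.28 ± 0.16), followed by Polk (0.21), Ephx1 (0.17) and Triap1 (0.09). Their order is not settled by these arrays, since leaving out each array in turn gave -0.77 to -0.33 for Gadd45a, -0.55 to -0.14 for Rrm2b, -0.54 to -0.13 for Eda2r and -0.39 to -0.18 for Tnfrsf10b. The values nearest 0 came without day 5 dox replicate 2 for Gadd45a and Eda2r, without day 5 control replicate 2 for Rrm2b and without knockdown dox replicate 1 for Tnfrsf10b. Mdm2 was at -0.23, and at -0.34 to -0.11 when each array was left out.

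Most p53 targets lay higher on day 5 than on day 4 in the overexpression line, and none was called. Day 4 is replicate 3 alone, so day and replicate cannot be told apart. Of the 30 members 24 lay higher on day 5 and 6 lower (80% and 20%, against 49.8% and 50.2% of all genes), with a median difference of 0.18 beside 0.00. Limma called 0 members (lowest adjusted p = 0.0711), where 0.558% of genes were called. Below an unadjusted p of 0.05 lay 8 members higher and 0 lower, against 7.52% and 6.68% of all genes. The members higher numbered 3 without the day 4 control or the day 4 dox array, where 3.08% and 3.86% of all genes were higher at this p. They numbered 5 without day 5 dox replicate 2 (6.26% of genes) and 12 without day 5 dox replicate 1 (9.1%). All day 5 arrays lay above both day 4 arrays for 11 members (36.7%, against 15.4% of genes) and below them for 3 (10%, against 15.1%).

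**Figure D4:**
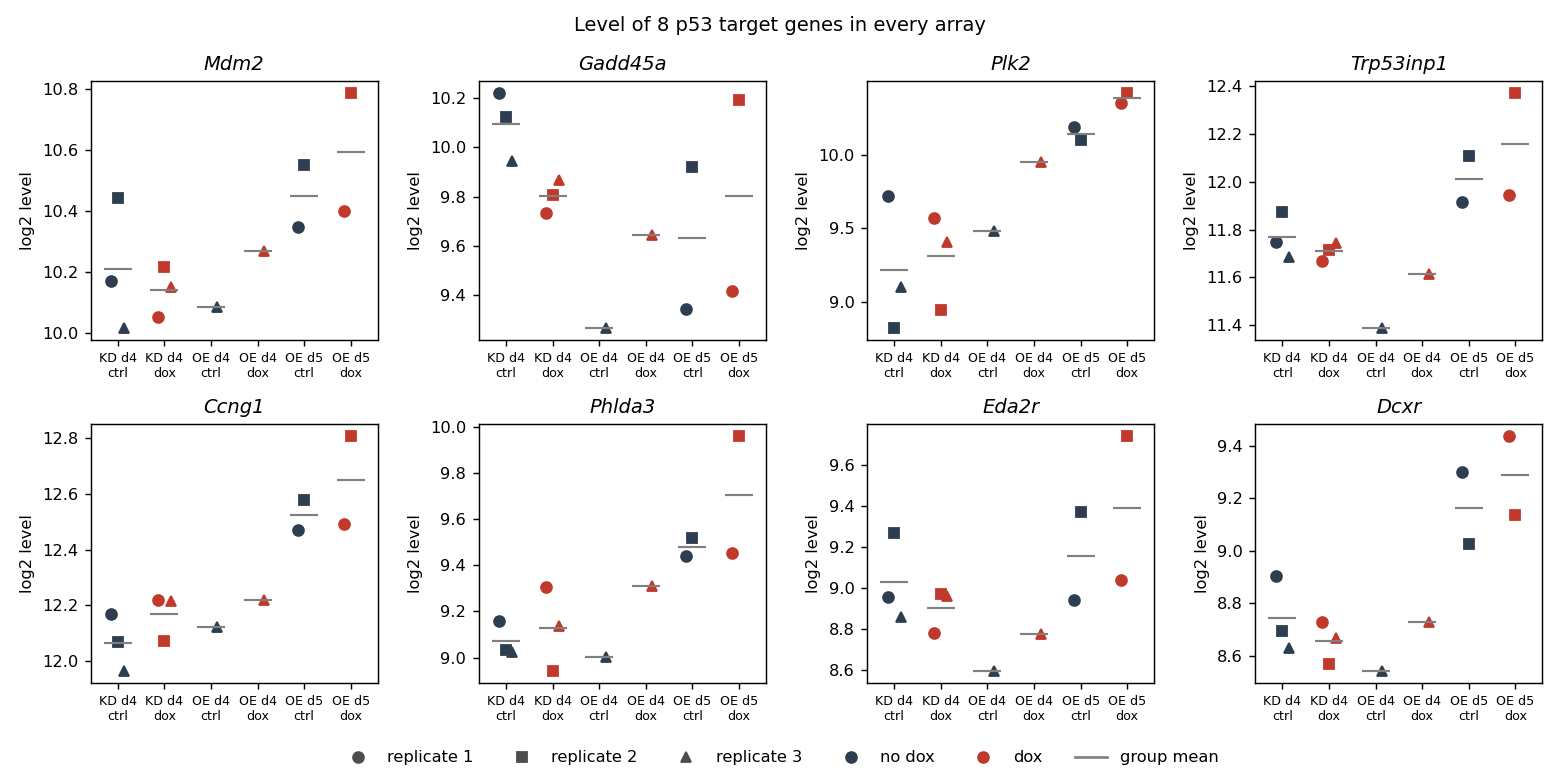
Log2 level of 8 p53 targets in every array, by group (x axis) and replicate (circle, square and triangle for replicates 1, 2 and 3), with control arrays dark, dox arrays red and group means as grey lines. The vertical axes do not start at 0 and differ between genes. Day 5 arrays of Plk2, Ccng1 and Dcxr lie above both day 4 arrays of the overexpression line, and Gadd45a in the knockdown line is lower in each dox array than in each control.

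Among the inhibitors and arrest genes, Trp53inp1, a nuclear protein that promotes p53 activity and autophagy, stood at 11.39 and 11.61 on day 4 (control, then dox) and between 11.92 and 12.37 in the 4 day 5 arrays (0.58 ± 0.12; limma adjusted p = 0.0713). Without day 5 dox replicate 1 it was at 0.68 and was called (limma adjusted p = 0.0313). Ccng1 stood at 12.12 and 12.22 on day 4 and between 12.47 and 12.81 on day 5 (0.41 ± 0.11; limma adjusted p = 0.124). Plk2 was at 0.55 ± 0.23 (limma adjusted p = 0.309) and Mdm2 at 0.34 ± 0.14 (limma adjusted p = 0.304). These 4 genes are among the 11 without overlap. Plk3, a further polo-like kinase, was at -0.38 ± 0.22, and at -0.12 without the day 4 dox array and -0.63 without the day 4 control array. Sesn1 was at -0.25 ± 0.12, and at -0.14 without the day 4 dox array.

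Among the death genes Eda2r was at 0.59 ± 0.20, Phlda3 at 0.44 ± 0.14 (limma adjusted p = 0.201 for both) and Tnfrsf10b at 0.32 ± 0.14 (limma adjusted p = 0.348). The apoptosome scaffold gene Apaf1 was at 0.31 ± 0.14, while Pmaip1 (-0.24 ± 0.17) and Fas (-0.15 ± 0.17) lay lower on day 5. Of the 6 repair and metabolic genes all lay higher. Dcxr stood at 8.54 and 8.73 on day 4 and between 9.03 and 9.44 on day 5 (0.59 ± 0.12; limma adjusted p = 0.0711). On the values as deposited, without quantile normalization, Dcxr was at 0.62 and was called (limma adjusted p = 0.0449). Beside these differences, the summed fibroblast markers were 2796 and 2888 on day 4 and between 3031 and 3497 on day 5, with 10 of 12 tested markers higher. The summed pluripotency markers were 29947 and 31115 on day 4 and between 22052 and 26298 on day 5, but 4 of the 10 markers lay higher on day 5 (median -0.09), and their mean log2 level was 10.73 and 10.81 on day 4 and between 10.33 and 11.0 on day 5. The part of either in the p53 targets was not tested.

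The overexpression line was set against the knockdown line on day 4, without dox, in the same model. The day 4 overexpression arrays are replicate 3 alone, so line and culture cannot be told apart. The dox effect of that line is shared with day 5, so the day 5 arrays also enter this value. Without the day 4 control array no untreated day 4 array of that line is left, and the value comes from the dox array less that effect. Of the 30 members 13 lay higher and 17 lower (against 46.9% and 53.1% of all genes; median -0.04 beside -0.02). Limma called 0 members (lowest adjusted p = 0.251), where 0.307% of genes were called. Below an unadjusted p of 0.05 lay 0 members higher and 4 lower, against 6.02% and 5.6% of genes, respectively. The members lower numbered 0 without the day 4 control array of the overexpression line (2.48% of genes), 2 without its day 4 dox array (3.2%) and 2 without day 5 control replicate 1 (4.65%). With each array scaled to a common median 1 member lay below this p, and the share of all genes was not recounted there.

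Gadd45a stood at 9.27 and 9.65 in the day 4 arrays of the overexpression line (control, then dox). Both lay below the lowest knockdown-line array, a dox array at 9.73 (-0.76 ± 0.24, limma adjusted p = 0.251). Plk3 stood at 8.04 and 8.46 against 8.47 to 9.09 (-0.64 ± 0.25), and was at -0.30 without the day 4 control array. The share of all genes with no overlap between these arrays was not counted. Trp53inp1 (-0.35 ± 0.14) and Bbc3 (-0.37 ± 0.15) were the other 2 of the 4. Ephx1 (-0.50) and Eda2r (-0.45) also lay lower, and leaving out each array in turn gave -0.95 to -0.01 and -0.55 to -0.33. Perp, a tetraspan membrane protein, lay highest at 0.50 ± 0.34, but at 0.25 without knockdown control replicate 2. Plk2 (0.34), Btg2 (0.25) and Pidd1 (0.25) came next, and were at 0.15, 0.14 and 0.14 at the lowest when an array was left out. Mdm2 was at -0.11. The mesendoderm markers differed far more between the lines, with 9 of 9 higher in the overexpression line and a median of 1.98, and their part in the p53 targets was not tested.

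**Figure D5:**
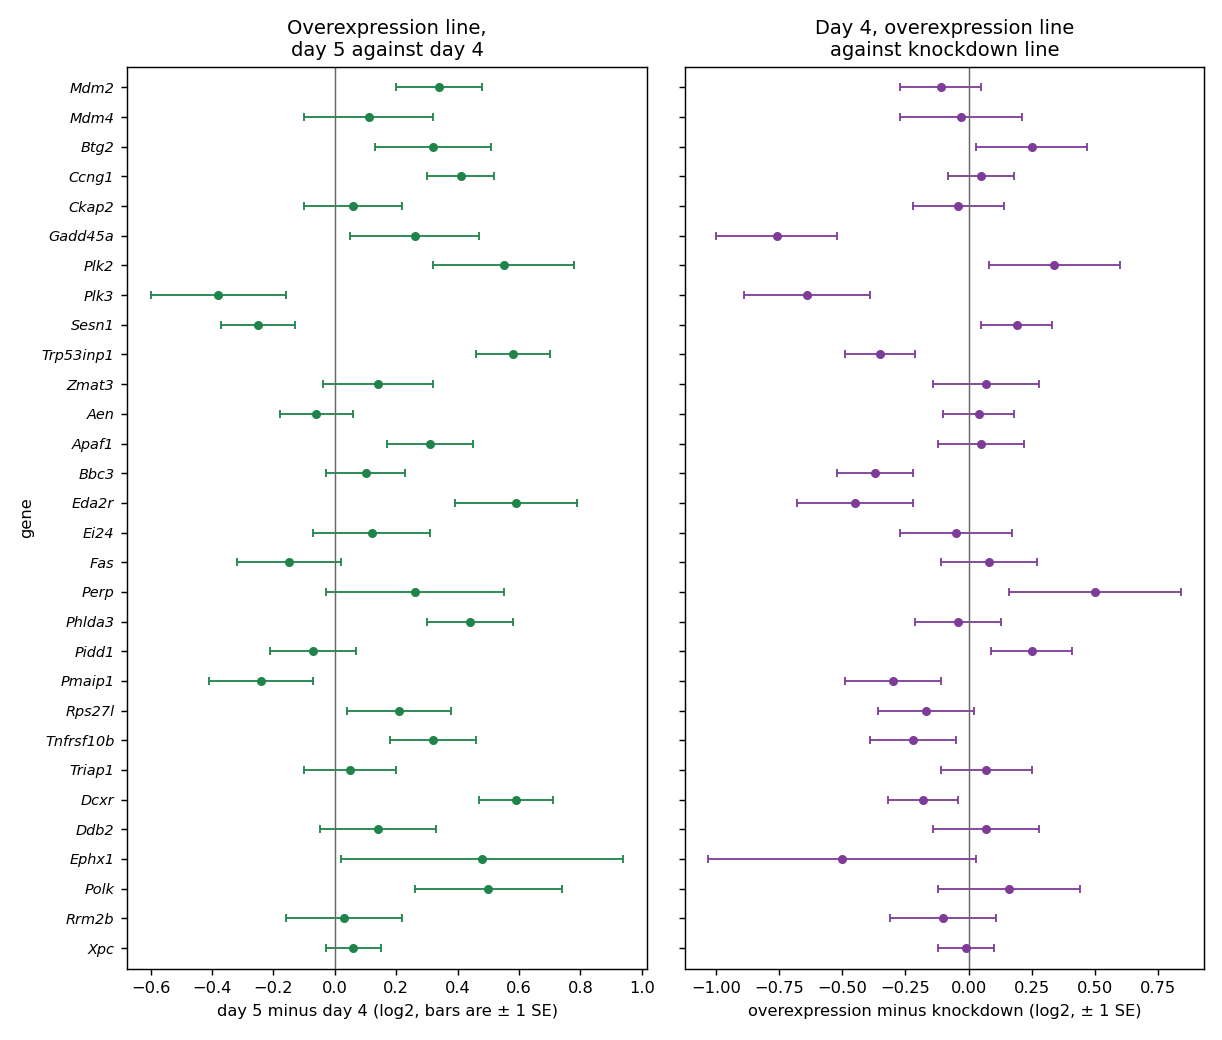
Left, day 5 minus day 4 in the overexpression line; right, overexpression minus knockdown line on day 4 (log2 differences as points, ± 1 SE as bars) for each p53 target. On the left Trp53inp1 lies at 0.58 and Eda2r and Dcxr at 0.59, and on the right Gadd45a lies at -0.76 and Plk3 at -0.64.

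Replicate 1 minus replicate 2 had the same sign in both knockdown groups and both day 5 groups for 16 of the 30 members (53.3%, against 42.8% of all genes). Of the 30 members 6 were higher in replicate 1 each time, against 21.2% of all genes, and 10 in replicate 2, against 21.6%. Perp stood at 9.56, 8.57 and 9.08 in the knockdown controls and 9.48, 8.55 and 9.13 with dox, and on day 5 at 10.10 and 9.64 without and 10.16 and 9.81 with dox, so replicate 2 was the lower each time. Ephx1 stood at 7.68, 8.77 and 6.89 in the knockdown controls and 7.53, 8.18 and 7.87 with dox, and on day 5 at 7.42 and 8.10 without and 7.08 and 8.26 with dox, so replicate 2 was the higher each time. Btg2, Rps27l, Triap1, Rrm2b and Dcxr followed Perp, and Mdm2, Mdm4, Plk3, Trp53inp1, Ckap2, Ei24, Tnfrsf10b, Eda2r and Apaf1 followed Ephx1. The summed mesendoderm markers were also lower in replicate 2 than in replicate 1 in these 4 groups (1468 against 3360, 2491 against 7495, 6614 against 12688 and 6390 against 11976), and their part was not tested. Xpc varied least, between 8.62 and 8.85 over the 12 arrays, and Ephx1 most, between 6.89 and 8.77.

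The 5 further lists give the surroundings of the pathway. Of 27 tested p53 targets outside the members, 9 lay higher with dox in the knockdown line (33.3%, against 52.7% of genes) and 18 lower, with a median of -0.09. With dox in the overexpression line 22 lay higher (81.5%, against 56.7% of genes), and on day 5 20 did (74.1%, against 49.8%). On day 5 there were 6 higher and 2 lower at an unadjusted p under 0.05 (22.2% and 7.41%, against 7.52% and 6.68% of genes), led by the lipase gene Abhd4 (0.54 ± 0.10; limma adjusted p = 0.057), Cyfip2 (-0.46 ± 0.11; limma adjusted p = 0.0877) and Ddit4, an inhibitor of mTORC1 (0.84 ± 0.23; limma adjusted p = 0.136). Of 19 regulators of p53, dox arrays lay higher for 12 in the knockdown line and for 11 in the overexpression line, with medians of 0.03 and 0.02. These are 63.2% and 57.9%, against 52.7% and 56.7% of genes.

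The genes of the damage checkpoint and of DNA repair, from sensors and kinases to repair enzymes, lay higher with dox in the knockdown line in 30 of 35 cases (85.7%, against 52.7% of genes). Their median was 0.08, beside 0.01 over all genes. The all-gene median of this comparison was -0.04 on the values as deposited and 0.068 with each array scaled to a common median. This list was not recounted under those settings. Of the 35, 3 lay higher at an unadjusted p under 0.05 (8.57%, against 2.17% of genes), the checkpoint adaptor Clspn (0.25 ± 0.11), the Ku subunit Xrcc6 (0.22 ± 0.10) and Atrip (0.26 ± 0.12), the partner of Atr, each with a limma adjusted p of 0.965. In the overexpression line 23 of 35 lay higher (65.7%, against 56.7% of genes), with a median of 0.02. On day 5 28 of 35 lay lower (80%, against 50.2% of genes). At an unadjusted p under 0.05 there were 13 lower and 1 higher (37.1% and 2.86%, against 6.68% and 7.52% of genes), led by Clspn (-0.54 ± 0.11; limma adjusted p = 0.067), the phosphatase gene Cdc25a (-0.31 ± 0.08; limma adjusted p = 0.119) and Tipin (-0.52 ± 0.14; limma adjusted p = 0.122).

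Of 21 genes of the apoptosis machinery 12 lay higher in the dox arrays of the knockdown line and 11 in those of the overexpression line, with 0 at an unadjusted p under 0.05 in either. These are 57.1% and 52.4%, against 52.7% and 56.7% of genes. On day 5 the survival gene Bcl2l1 (0.44 ± 0.11; limma adjusted p = 0.109) had the smallest p among them. Of 17 mitotic and S phase genes that p53 lowers through p21 and the DREAM complex 10 and 8 lay higher with dox in the knockdown and the overexpression line. These are 58.8% and 47.1%, against 52.7% and 56.7% of genes, with medians of 0.02 and 0.00. On day 5 14 lay lower (82.4%, against 50.2% of genes, median -0.15). The smallest p values there were those of Kif23 (-0.26 ± 0.10), Aurkb (-0.31 ± 0.12) and Ccna2 (-0.20 ± 0.08). No gene of these 5 lists was called in any of the comparisons named.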

How the data were processed

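Total RNA of 12 embryoid body samples was labelled with biotin as sense-strand target for Affymetrix arrays (labels' protocols). The authors deposited linear intensities, 1 per probe set and array, 35512 in all. Array means lay between 677.3 and 696.6. Not given in the sources used here: how probes were summarised and normalized. Precision is limited by the number of arrays.

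Values were transformed as log2(intensity + 1) and quantile normalized, since array medians spanned 0.324. Fold changes on this scale understate those of dim genes. GEO's platform annotation names 1 gene for 21789 probe sets, several for 1621 and none for 12102. Genes with a mean below the 20th percentile were not tested. The model (limma 3.58.1, R 4.3.3, lmFit and eBayes) had a mean for each line and day and 1 dox effect for each line, with 7 residual and 3.5 prior degrees of freedom. Adjustment was by Benjamini-Hochberg over 15950 genes. The fit was run on simulated arrays with independent noise and no differences between lines, days or replicates other than dox effects. That run cannot show how it behaves where same-numbered arrays deviate together.

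The members and lists were chosen with earlier results of these data known. Described with values are Mdm2, members with an unadjusted p under 0.05 and the 4 largest differences each way per comparison, and up to 3 genes with the smallest p of each further list. Further members were named after their values were seen. For 13 of the 197 list entries no single-gene probe set was found. The labels do not say that a replicate number marks a shared culture. Deviations of same-numbered arrays correlated with r = 0.60, 0.44 and 0.05 in the knockdown line and 0.79 on day 5. Numbers were to be taken as pairs where every r was over 0.1, which replicate 3 missed, so the fit with a replicate block is an alternative. Alternatives covered normalization, pseudocount, filter, probe-set choice, the arrays fitted, a replicate block and leaving out each array.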

Additional observations from a re-analysis of the deposited data

Results flagged for a closer look

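Gadd45a and Ei24, an endoplasmic reticulum protein of the death group, were lower with dox in every same-numbered difference of the knockdown line and higher in every one of the overexpression line, as were 2.46% of all tested genes (2 of the 30 members, 6.67%). For Gadd45a these differences were -0.49, -0.31 and -0.07 in the knockdown line and 0.07, 0.27 and 0.38 in the overexpression line (replicates 1, 2 and 3). For Ei24 they were -0.18, -0.35 and -0.03, and 0.06, 0.14 and 0.06. The signs of these 2 genes were not recounted with each array scaled to a common median, where the all-gene median of overexpression replicate 1 was -0.08. Dox ran from day 0 in the knockdown line and from day 3 in the overexpression line, so line and dox timing cannot be told apart. The difference between the lines was -0.53 ± 0.28 for Gadd45a and -0.28 ± 0.25 for Ei24 (SE; limma adjusted p = 1 for both).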

How the results depend on the processing

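Genes are called at a limma adjusted p under 0.05, and nominal members are those at an unadjusted p under 0.05. In the fit of the report, with all arrays and no block, 0 members were nominal with dox in either line or for the difference between lines. Replicate numbers were not taken as pairs. With a replicate block nominal members numbered 2 in the knockdown line (both lower, against 4.65% of genes lower), 6 in the overexpression line (all higher, against 1.89% of genes higher) and 5 for the difference (all lower, against 4.01%), while nominal genes went from 599, 149 and 340 to 1941, 572 and 1384.

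On the values as deposited Ddb2 with dox in the overexpression line was at 0, and 30 genes were called between lines. Higher in all 3 same-numbered differences were 2 members in the knockdown line (14.6% of genes) and 19 in the overexpression line (19.8%). Scaled to a common median, Mdm2 in the knockdown line was at 0.03, and 15 members were higher for the difference. The all-gene median of the difference was 0.068, with 8 members above it, beside 7 in the main setting. With this scaling 33 genes were called between days and 1 member was nominal between lines, where the share of nominal genes was not recounted. In all 3 same-numbered differences 6 members were higher in the overexpression line (10% of genes) and 3 in the knockdown line (20.8%). These same-numbered counts were chosen after seeing the data. With no filter on dim genes 27 genes were called between days and 29 between lines. With each line alone 0 genes were called and 1 member was nominal with dox in either line, and 19 genes were called between days. The share of nominal genes was not recounted with each line alone. With day 5 alone 0 genes were called in the overexpression line.

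Leaving out each array in turn, nominal members with dox were 0 to 1 in the knockdown line (1.3% to 7.75% of genes) and 0 to 5 in the overexpression line (0.527% to 1.52% of genes), the 5 without day 5 dox replicate 1 (1.34%) and 0 in the other 11 fits. There 0 to 1 genes were called. For the difference 4 to 12 members were higher and 0 to 3 nominal (1.26% to 4.32% of genes). Between days 0 to 148 genes were called and 3 to 12 members were nominal (5.92% to 15.5% of genes). Between lines 0 to 80 genes were called, 8 to 17 members were higher and 0 to 5 nominal (5.07% to 13% of genes). Signs turned for Mdm2 in the knockdown line (-0.17 to 0.05) and between lines (-0.21 to 0), for Ephx1 (-0.43 to 0.24), Fas (-0.09 to 0.02) and Ddb2 (-0.12 to 0.12) in the overexpression line, and for the difference in Polk (-0.05 to 0.46), Ephx1 (-0.27 to 0.67) and Triap1 (-0.02 to 0.21). The cause was not tested. For the counts of members higher, the share of all genes higher was not recounted with an array left out. Where an array is left out and a group keeps 1 array, it is assumed to vary like the others. Leaving out a knockdown array changes the spread but no dox difference of the overexpression line, and leaving out either day 4 array gives the same dox differences there. The fits are thus not separate checks.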
